A study of Mus musculus with 6 samples.

Results

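The mitochondrial protein import machinery was described through 36 genes, listed by name for their place on the import route. They encode the outer membrane translocase (TOM) with its cytosolic cofactor, the inner membrane translocases TIM23 and TIM22, the import motor, the small TIM chaperones, the disulfide relay of the intermembrane space, the sorting and assembly machinery (SAM) with its metaxins, and the proteases that remove targeting signals. All 36 were present in a count table of 48440 genes, and all 36 were among the 13314 genes that passed the filter on low counts and were tested. RNA was sequenced from primary mouse CD4+ T cells of wildtype animals, 3 libraries left unstimulated and 3 libraries stimulated for 4 hours with anti-CD3/CD28 antibody, a mimic of antigen that triggers the T cell receptor and its costimulatory receptor. Cells of both groups came from spleen and lymph nodes and had already been activated on plate-bound antibodies for 3 days and then grown in IL2 for 5 days. The unstimulated cells were therefore rested T cell blasts and not naive cells, and the comparison is a restimulation. The sources used here do not give strain, age or sex of the mice. The replicates are called biological, but whether each came from a separate mouse is not said, so the tests measure the spread between these libraries.

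Nearly all mitochondrial proteins are encoded in the nucleus and made in the cytosol. Precursors are recognised by receptors on the mitochondrial surface, pass the outer membrane through the TOM pore, and are then passed to TIM23 for the matrix, to TIM22 for carrier proteins of the inner membrane, to SAM for barrel proteins of the outer membrane, or to the disulfide relay for small proteins of the intermembrane space. T cells that are activated through their receptor enlarge and make new mitochondrial protein, which has to enter by these routes.

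The libraries held 29897720 to 30252923 counts each, so that 3 counts, taken as the floor of detection, corresponded to 0.0943 to 0.106 CPM (counts per 1e6 counts of the library, scaled by the TMM factors). Il2, the cytokine that restimulated CD4+ T cells secrete, went from 0.475 ± 0.117 to 251 ± 54.02 CPM. The 8 T cell markers were all measured in every group, with a summed level of 4308 to 4542 CPM without and 2039.5 to 2103 CPM with stimulation, all 8 lower after stimulation, Cd4 itself going from 984 ± 40.2 to 333 ± 16.7 CPM. The summed level of 7 B cell markers was 1408 to 2863 and 732 to 1282 CPM, most of it Ighm, and 6 of the 7 were lower. The share of all tested genes called lower was 39.1%. Sums for CD8 T cell (20.9 to 24.8 and 20.7 to 25.8 CPM), myeloid (10.7 to 13.5 and 4.24 to 7.55 CPM), NK (12.7 to 41.97 and 68.9 to 133 CPM) and erythroid genes (0.573 to 1.67 and 0.213 to 0.6202 CPM) were lower than those of T cell genes by over an order of magnitude. The higher NK sum came from Eomes, at 8.03 ± 10.04 and 82.6 ± 27.1 CPM. Gzma was not called (14.9 ± 6.57 and 15.6 ± 5.12 CPM), and Ncr1, Klrb1c and Klra8 had at most 3 counts in any library. The part of these marker differences in the results below was not tested, and in bulk RNA fewer cells of a type and less RNA per cell cannot be told apart.

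Most of the import genes rose on restimulation. Of the 36, 31 were higher and 2 were lower in the stimulated cells (edgeR quasi-likelihood test, adjusted p at or below 0.05), and 3 were not called. Among all tested genes 38.4% were called higher and 39.1% lower. Against a fold change of 2, 16 import genes were higher, where 17.4% of all tested genes were, and 0 were lower, where 18.2% of all tested genes were; at an unadjusted p of 0.05 the count of import genes lower by more than 2-fold was also 0, as it was with DESeq2 and with limma-voom. For 34 import genes no stimulated library fell within the range of the unstimulated ones or the reverse, against 79.8% of all tested genes. The median log2 fold change over the 36 was 1.09, with a range from -1.06 to 3.79, beside a median of -0.043 and quartiles of -0.956 and 0.835 over all tested genes. Summed over the 36 genes the level was 1298 ± 53.98 CPM in unstimulated and 3209.6 ± 106 CPM in stimulated libraries. Without the TMM scaling the 36 genes held 0.136% and 0.306% of the counts. The plot of levels by library shows that the spread between replicates was small beside most of these differences.

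**Figure D1:**
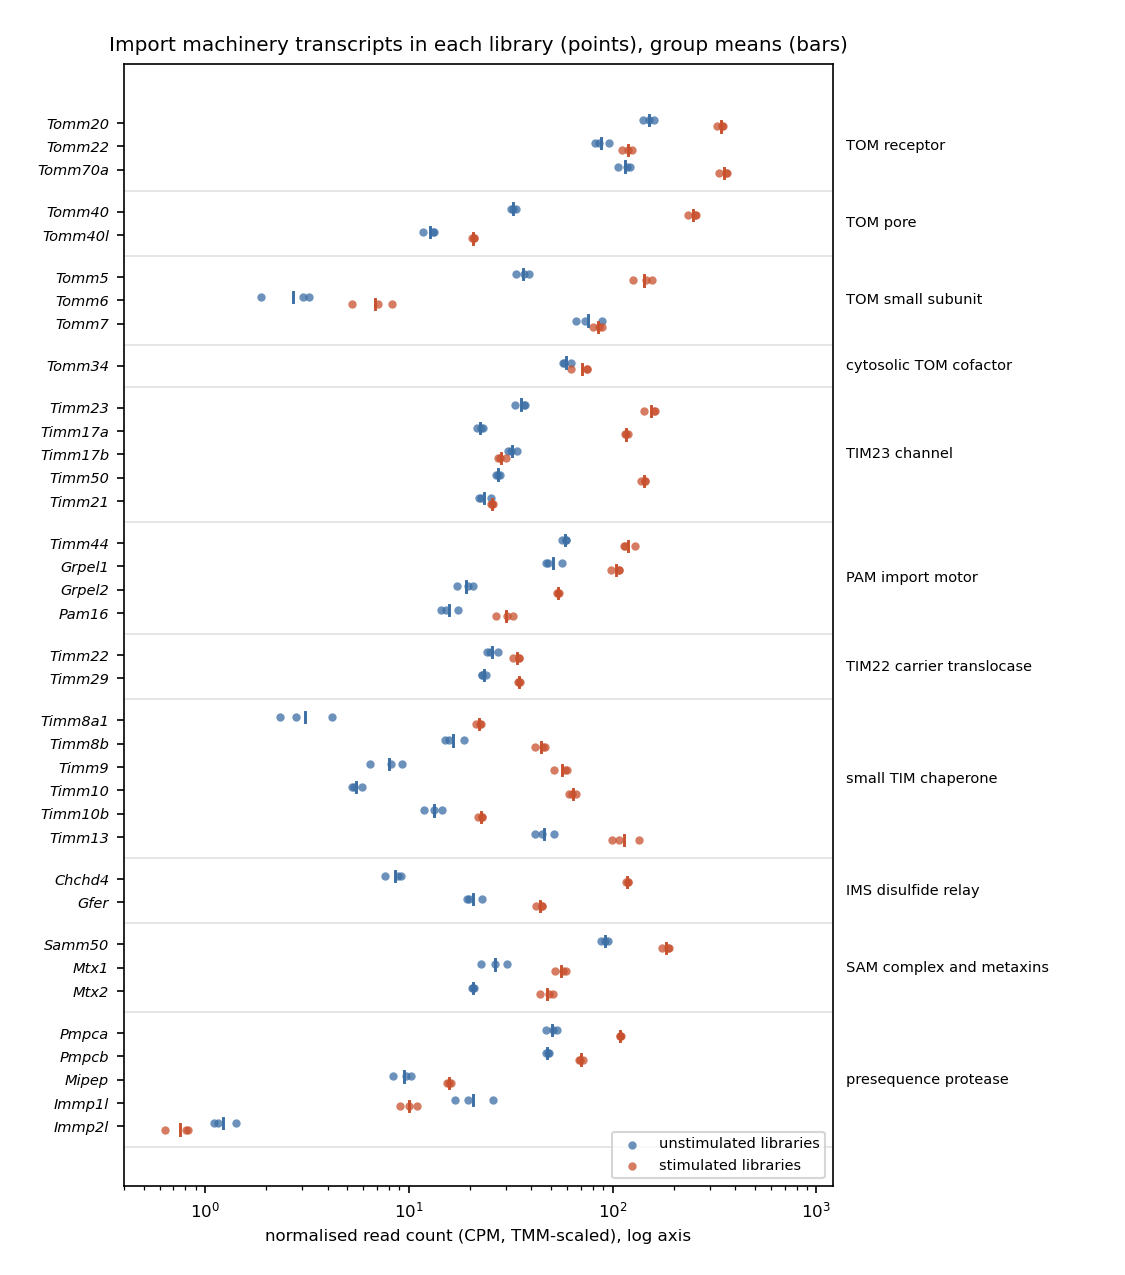
Level of each import gene in each of the 6 libraries, in CPM on a log axis, grouped by role, with points for unstimulated (blue) and stimulated (red) libraries and a bar at each group mean. Stimulated points lie to the right of unstimulated ones for most genes, overlap for Tomm7 and Timm21, and lie to the left for Timm17b, Immp1l and Immp2l.

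The 2-fold call was reached in every setting tried by 12 of the 16 genes, which were Chchd4, Timm10, Tomm40, Timm8a1, Timm9, Timm17a, Timm50, Timm23, Tomm5, Tomm70a, Grpel2 and Timm8b. The other 4, Tomm20, Timm13, Mtx2 and Pmpca, were past it as fitted here and with RLE normalization, but not with library size alone, with library sizes computed without the 20 most abundant genes, with DESeq2 or with limma-voom, each of which gave 12 genes. Pmpca was also not past it with either other filter or without any library but unstimulated replicate 1, and Pmpca, Timm13 and Tomm20 were not past it at an adjusted p of 0.01. Those first 12 genes span the outer membrane, the intermembrane space, the inner membrane and the import motor on the matrix side.

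For the 5 import genes with the largest rises, and for the paralogs Timm17a and Timm17b, of which only the first was called as changed, the sequence upstream of the annotated gene start is printed here so that these regions can be compared. Each line gives up to 150 bases from RefSeq's GRCm38.p6 promoter windows, 5′ to 3′ on the strand of the gene, without bases that GENCODE places inside the gene. Capitals mark a match to an E-box (CACGTG) or a CCAAT box (CCAAT, or ATTGG on the other strand), the only searched motifs found in these stretches.
Chchd4: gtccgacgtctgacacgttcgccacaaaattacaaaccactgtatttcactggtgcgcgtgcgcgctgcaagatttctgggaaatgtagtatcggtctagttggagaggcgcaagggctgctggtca
Timm10: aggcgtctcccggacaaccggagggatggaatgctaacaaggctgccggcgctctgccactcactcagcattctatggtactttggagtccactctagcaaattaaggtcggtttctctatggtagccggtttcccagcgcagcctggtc
Tomm40: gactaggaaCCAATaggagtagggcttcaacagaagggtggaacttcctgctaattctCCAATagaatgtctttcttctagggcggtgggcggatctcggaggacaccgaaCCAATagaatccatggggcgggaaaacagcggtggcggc
Timm8a1: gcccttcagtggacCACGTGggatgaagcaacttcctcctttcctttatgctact
Timm9: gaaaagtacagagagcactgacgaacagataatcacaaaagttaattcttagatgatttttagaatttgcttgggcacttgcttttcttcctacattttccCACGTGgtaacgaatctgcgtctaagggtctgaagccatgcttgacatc
Timm17a: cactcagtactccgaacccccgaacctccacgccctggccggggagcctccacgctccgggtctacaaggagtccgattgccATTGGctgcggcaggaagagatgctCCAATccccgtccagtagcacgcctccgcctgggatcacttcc
Timm17b: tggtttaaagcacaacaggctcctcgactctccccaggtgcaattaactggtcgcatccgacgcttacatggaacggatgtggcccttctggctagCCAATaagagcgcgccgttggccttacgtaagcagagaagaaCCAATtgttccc
The stretches lie at chr6:91473547-91473673 (minus strand), chr2:84826847-84826996 (plus), chr7:19715439-19715588 (minus), chrX:134541866-134541920 (minus), chr12:71136685-71136834 (minus), chr1:135313779-135313928 (minus) and chrX:7899186-7899335 (plus). The genes they precede are annotated at chr6:91462172-91473546, chr2:84826997-84830213, chr7:19701313-19715438, chrX:134537256-134541865, chr12:71123173-71136684, chr1:135295213-135313778 and chrX:7899357-7908351 in GENCODE M21, on GRCm38.

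RefSeq promoter windows, which reach from 250 bases before to 50 bases after a start, were matched for 32 of the 36 import genes. The E-box, a palindrome that proteins of the Myc family bind, was found in 4 of the 32 (Tomm20, Timm8a1, Timm9 and Timm10), or 12.5%, beside 11.89% of 9799 tested genes and 7.15% of all 32851 promoter windows. It lies 58 bases before RefSeq's start in Timm9 and 236 bases before it in Timm8a1, and in both genes RefSeq's start is downstream of the GENCODE start at which the printed stretch ends. The ETS core (CCGGAAGT or its complement), which GABP recognises, was found in 7 of the 32, or 21.88%, beside 9.54% of tested genes and 3.89% of all windows. These 7 were Tomm70a, Timm23, Timm29, Timm10, Timm10b, Mtx2 and Pmpcb, whose log2 fold changes ran from 0.54 to 3.53. The NRF1 core (GCGCATGC or its complement) was in 2 of the 32, Grpel1 and Timm13, which is 6.25% beside 6.09% of tested genes and 2.71% of windows. CCAAT boxes were in 11, or 34.38%, beside 42.84% of tested genes and 37.41% of windows. Timm17a and Timm17b both carry 2 CCAAT matches in the printed stretch, and the promoter windows of Immp1l and Immp2l, the 2 genes called lower, carry 1 or more as well. A match is a description of the letters in the window, not of binding.

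At the mitochondrial surface all 3 receptor genes rose, where 38.4% of all tested genes were called higher. Tomm70a encodes the receptor for carrier precursors that arrive on cytosolic chaperones, and it measured 122, 117 and 106 CPM in the 3 unstimulated libraries and 366, 362 and 333 CPM in the 3 stimulated ones. This was a 3.07-fold rise (log2 fold change 1.62, SE 0.08, adjusted p = 1.1e-07). Tomm20, the receptor for presequences, measured 142, 151 and 161 CPM in the 3 unstimulated libraries and 325, 348 and 345 CPM in the 3 stimulated ones, a 2.25-fold rise (log2 fold change 1.17, SE 0.07, adjusted p = 4.9e-07). Every stimulated library lay above every unstimulated one for both genes, where 79.8% of all tested genes did not overlap in either direction. The third receptor gene, Tomm22, which also organises the translocase, rose less, from 87.6 ± 7.398 to 118 ± 7.21 CPM, 1.35-fold (adjusted p = 0.00104). Together the 3 receptors made up 354 ± 8.62 CPM before and 811 ± 20.7 CPM after stimulation.

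Tomm40 codes for the barrel that forms the outer membrane pore. It measured 32.3, 31.8 and 33.7 CPM in the 3 unstimulated libraries and 236, 256 and 255 CPM in the 3 stimulated ones, a 7.64-fold rise (log2 fold change 2.93, SE 0.07, adjusted p = 5.2e-09). All stimulated libraries were far above all unstimulated ones, and the unstimulated libraries differed from one another by little. Tomm40l, a close relative, measured 11.7, 13.1 and 13.4 CPM without and 20.9, 20.96 and 20.5 CPM with stimulation and rose 1.63-fold (adjusted p = 6.4e-05). In GENCODE 64.3% of the exon bases of Tomm40l are shared with Nr1i3 on the opposite strand, so its count is less certain than that of Tomm40. There were 2.76, 2.42 and 2.52 counts of Tomm40 per count of Tomm40l at rest and 11.2, 12.2 and 12.5 after stimulation, without overlap.

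Small TOM subunits stabilise the pore, and they did not move alike. Tomm5 measured 36.8, 33.8 and 38.9 CPM in the 3 unstimulated libraries and 125, 146 and 157 CPM in the 3 stimulated ones, a 3.91-fold rise (log2 fold change 1.97, SE 0.10, adjusted p = 1.6e-07). Tomm7 measured 65.9, 73.5 and 88.3 CPM and 80.1, 85.98 and 88.8 CPM, with overlapping groups, and was not called (log2 fold change 0.16, SE 0.11, adjusted p = 0.189). Without the third unstimulated library, the highest of its group, the log2 fold change of Tomm7 was 0.27 and the gene was called higher (adjusted p = 0.0121). Tomm6 was called higher at a low level, 2.72 ± 0.737 to 6.86 ± 1.52 CPM (log2 fold change 1.34, SE 0.25), but 75.95% of its exon bases also belong to the read-through gene Gm21981 on the same strand, so reads may have been split or set aside. Tomm34, a cytosolic cofactor that holds precursors with chaperones, changed least among the genes called, from 59.2 ± 2.74 to 70.8 ± 7.24 CPM (log2 fold change 0.26, adjusted p = 0.0214), and it was not called with library size alone (log2 fold change 0.12, adjusted p = 0.26), without the 20 most abundant genes in the library size (0.11, adjusted p = 0.308), or without unstimulated replicate 1 or 2 or stimulated replicate 2 or 3 (adjusted p from 0.0505 to 0.0798).

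**Figure D2:**
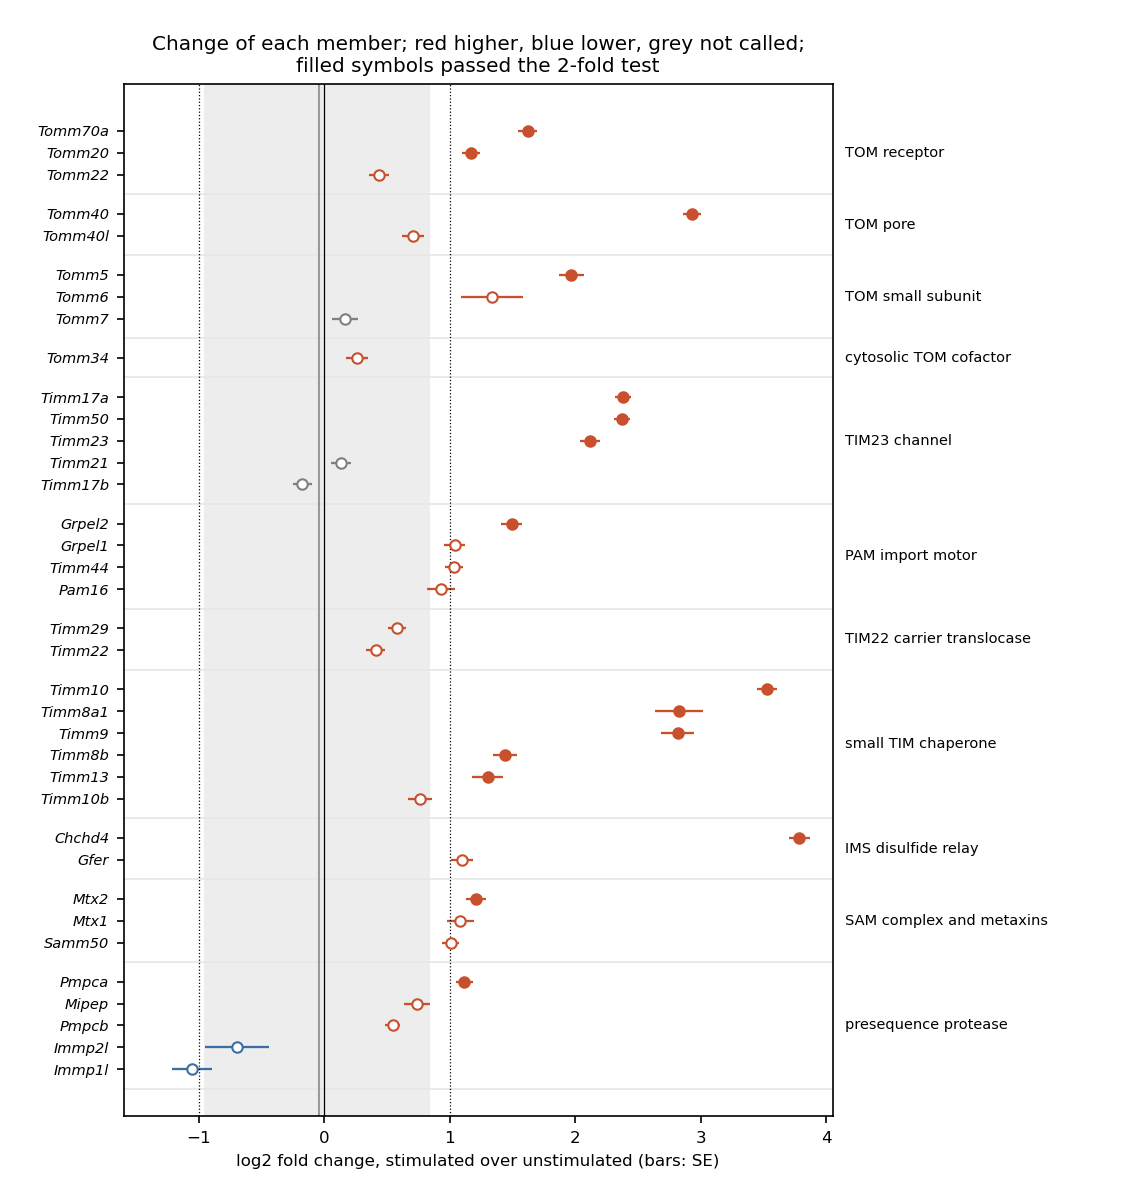
Log2 fold change of each import gene, stimulated over unstimulated, with bars of 1 standard error, grouped by role and coloured by call, filled where past the 2-fold test. The grey line and shading give the median and quartiles of all tested genes, and dotted lines a 2-fold change. Chchd4, Timm10 and Tomm40 lie farthest to the right and Immp1l and Immp2l are the genes called lower.

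The channel of TIM23 takes precursors with a presequence across or into the inner membrane. Timm23, its core subunit, measured 37.1, 33.4 and 36.6 CPM in the 3 unstimulated libraries and 142, 159 and 162 CPM in the 3 stimulated ones, a 4.33-fold rise (log2 fold change 2.11, SE 0.08, adjusted p = 3.2e-08). Timm50, the receptor that hands precursors from TOM to the channel, measured 26.9, 27.5 and 28.1 CPM in the 3 unstimulated libraries and 139, 144 and 145 CPM in the 3 stimulated ones, a 5.18-fold rise (log2 fold change 2.37, SE 0.06, adjusted p = 6.8e-09). In both genes the lowest stimulated library was more than 3 times the highest unstimulated one.

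Timm17a and Timm17b are alternative versions of the subunit that sits beside Timm23, and only Timm17a was called as changed. Timm17a measured 22.6, 23.3 and 21.6 CPM in the 3 unstimulated libraries and 115, 119 and 116 CPM in the 3 stimulated ones, a 5.197-fold rise (log2 fold change 2.38, SE 0.07, adjusted p = 7.5e-09). Timm17b measured 31.9, 30.8 and 33.9 CPM in the 3 unstimulated libraries and 27.3, 28.2 and 29.98 CPM in the 3 stimulated ones, with no overlap, and was not called (log2 fold change -0.18, SE 0.08, adjusted p = 0.0590). It was called lower with library size alone (log2 fold change -0.32, adjusted p = 0.00646), with low counts removed below 1 CPM (-0.19, adjusted p = 0.0421) and without the 20 most abundant genes in the library size (-0.33, adjusted p = 0.00537). The count ratio of Timm17a to Timm17b, which does not depend on scaling, was 0.708, 0.754 and 0.638 in unstimulated and 4.23, 4.23 and 3.87 in stimulated libraries, so that in counts Timm17b was the more abundant version in every unstimulated library and Timm17a in every stimulated one. The ratio changed by 2.56 on the log2 scale, at the smallest p that an exact permutation test can give with 3 libraries a side (two-sided p = 0.1, adjusted p = 0.125 over 10 pairs). Their exon lengths differ, and per length Timm17b stood at 12.6 ± 0.6102 RPKM (CPM per kilobase of exon) against 2.85 ± 0.104 RPKM for Timm17a at rest, and at 11.1 ± 0.536 against 14.8 ± 0.246 RPKM after stimulation. Timm21, which links the channel to TOM and to the respiratory chain, measured 22.2, 22.7 and 25.2 CPM and 25.2, 25.8 and 26.01 CPM and was not called (log2 fold change 0.13, SE 0.08, adjusted p = 0.155), and its sign turned with library size alone (-0.0055).

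The import motor pulls precursors into the matrix, and all 4 of its listed genes rose, beside 38.4% of all tested genes. Grpel2 is a nucleotide exchange factor for the motor's Hsp70. It measured 20.7, 19.6 and 17.2 CPM in the 3 unstimulated libraries and 53.9, 54.5 and 53.5 CPM in the 3 stimulated ones, a 2.82-fold rise (log2 fold change 1.49, SE 0.08, adjusted p = 3.1e-07). Its paralog Grpel1 measured 48.3, 47.4 and 56.8 CPM and 98.5, 108 and 107 CPM, a 2.05-fold rise (log2 fold change 1.04, SE 0.09, adjusted p = 4.1e-06). The count ratio of Grpel1 to Grpel2 fell from 2.33, 2.42 and 3.304 to 1.83, 1.97 and 2.001 without overlap (log2 change -0.46, exact permutation p = 0.1, the smallest possible), while Grpel1 was the more abundant in counts in all 6 libraries. Timm44, which tethers the motor to the channel, went from 58.2 ± 1.67 to 119 ± 8.57 CPM, and Pam16, which restrains the motor's J protein, from 15.7 ± 1.63 to 29.9 ± 3.02 CPM, with log2 fold changes of 1.04 and 0.93. Neither passed the 2-fold test. The Hsp70 that the motor acts through, Hspa9, was not in the list of 36 and rose from 138, 123 and 118 CPM to 1023, 1013 and 916 CPM (log2 fold change 2.96, adjusted p = 8e-09), more than any of the 4.

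Carrier proteins of the inner membrane are inserted by TIM22. Timm29, a subunit found in animals, measured 22.9, 24.1 and 22.9 CPM in the 3 unstimulated libraries and 34.7, 34.4 and 35.2 CPM in the 3 stimulated ones, a 1.49-fold rise (log2 fold change 0.58, SE 0.07, adjusted p = 5.1e-05). Timm22, the channel itself, went from 24.3, 25.03 and 27.6 to 34.6, 34.8 and 32.5 CPM, 1.33-fold (adjusted p = 0.00120). Both genes rose without overlap, where 79.8% of all tested genes did not overlap in either direction. Neither came near a 2-fold change. The summed level of this route, 48.9 ± 1.61 and 68.8 ± 0.8696 CPM, rose 1.41-fold, beside 3.31-fold for the 5 genes of the TIM23 channel.

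Small TIM proteins are chaperones that carry hydrophobic precursors across the intermembrane space. All 6 of their genes rose, 5 of them past the 2-fold test, beside 38.4% and 17.4% of all tested genes. Timm10 measured 5.28, 5.88 and 5.41 CPM in the 3 unstimulated libraries and 61.3, 66.5 and 63.4 CPM in the 3 stimulated ones, an 11.5-fold rise (log2 fold change 3.53, SE 0.08, adjusted p = 5.2e-09). Timm9, its partner in the same hexamer, measured 9.29, 6.48 and 8.23 CPM in the 3 unstimulated libraries and 51.4, 59.5 and 58.1 CPM in the 3 stimulated ones, a 7.04-fold rise (log2 fold change 2.82, SE 0.13, adjusted p = 1.1e-07). At rest there were more counts of Timm9 than of Timm10 in each library (1.76, 1.102 and 1.52 per count of Timm10), and after stimulation fewer in each (0.839, 0.894 and 0.917), a log2 change of -0.70 (exact permutation p = 0.1, the smallest possible).

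The other hexamer pairs Timm8 proteins with Timm13. Timm8a1, whose human counterpart is mutated in a deafness and dystonia syndrome, measured 4.2, 2.81 and 2.33 CPM in the 3 unstimulated libraries and 22.6, 21.4 and 22.3 CPM in the 3 stimulated ones, a 7.09-fold rise (log2 fold change 2.83, SE 0.19, adjusted p = 1e-06). Timm8b measured 15.8, 15.1 and 18.7 CPM in the 3 unstimulated libraries and 41.8, 46.8 and 45.8 CPM in the 3 stimulated ones, a 2.71-fold rise (log2 fold change 1.44, SE 0.10, adjusted p = 1.2e-06). Timm8b gave more counts than Timm8a1 in all 6 libraries, but the ratio of Timm8a1 to Timm8b rose from 0.266, 0.186 and 0.125 to 0.542, 0.457 and 0.486. Timm13 measured 41.8, 44.9 and 51.6 CPM in the 3 unstimulated libraries and 99.6, 107 and 134 CPM in the 3 stimulated ones, a 2.46-fold rise (log2 fold change 1.30, SE 0.13, adjusted p = 1.4e-05), with the third stimulated library above the others. Without it the 2-fold call of Timm13 was lost. Timm10b, which links the chaperones to TIM22, rose least of the 6, from 11.9, 13.3 and 14.6 to 23, 21.8 and 22.9 CPM (log2 fold change 0.76), and the ratio of Timm10 to Timm10b went from 0.444, 0.442 and 0.369 to 2.66, 3.06 and 2.77. The small TIM genes summed to 92.6 ± 7.23 CPM at rest and 323 ± 23.4 CPM after stimulation.

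Small TIM proteins are themselves imported by the disulfide relay of Chchd4, the oxidoreductase known as Mia40, and Gfer, the sulfhydryl oxidase that reoxidises it. Chchd4 had the largest rise of the 36 and measured 8.88, 7.62 and 9.18 CPM in the 3 unstimulated libraries and 116, 119 and 119 CPM in the 3 stimulated ones, a 13.8-fold rise (log2 fold change 3.79, SE 0.09, adjusted p = 5.2e-09). Of the 13314 tested genes 281 had a larger log2 fold change. Gfer measured 19.2, 19.7 and 22.9 CPM in the 3 unstimulated libraries and 41.9, 44.9 and 45.3 CPM in the 3 stimulated ones, a 2.13-fold rise (log2 fold change 1.09, SE 0.09, adjusted p = 3.6e-06), and did not pass the 2-fold test. Both genes separated the groups completely, yet by different amounts: there were 0.462, 0.387 and 0.400 counts of Chchd4 per count of Gfer at rest and 2.78, 2.66 and 2.62 after stimulation, a log2 change of 2.69. Over the 10 pairs of import genes compared, the ratios of 8 did not overlap between the groups, each at the smallest p the exact permutation test allows (p = 0.1, adjusted p = 0.125). For levels of single genes, 79.8% of all tested genes did not overlap either. No such share was computed for ratios of other gene pairs, so nothing particular about these pairs can be read from the count.

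**Figure D3:**
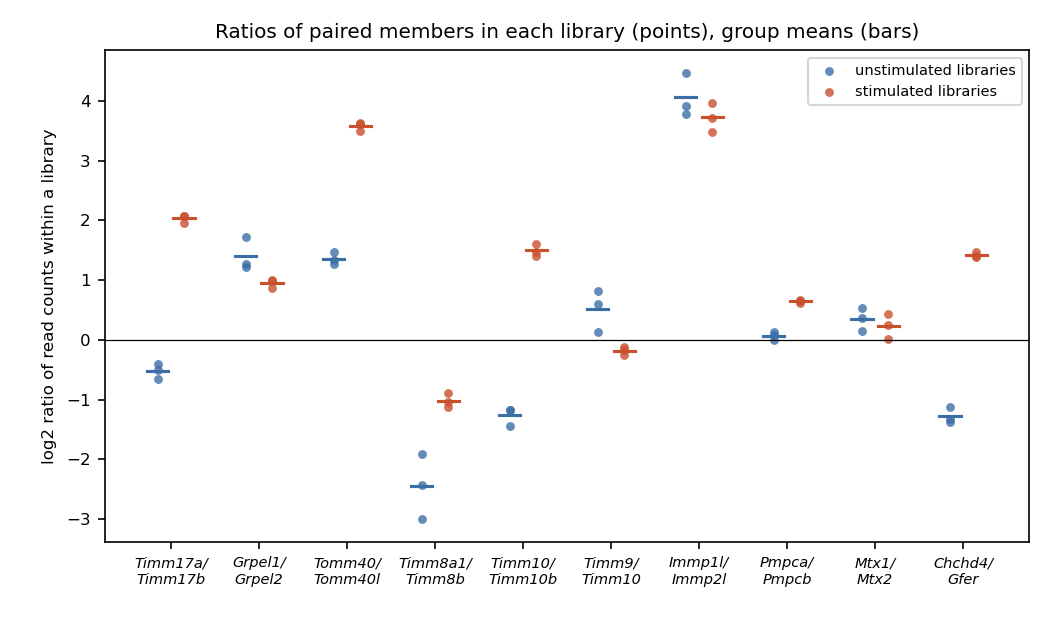
Log2 ratio of counts of 10 pairs of import genes in each of the 6 libraries (points), with group means as bars and a line at 0 where both genes have equal counts. The groups do not overlap in 8 pairs and overlap in Immp1l/Immp2l and Mtx1/Mtx2, and Timm17a/Timm17b, Timm10/Timm10b, Timm9/Timm10 and Chchd4/Gfer change sign between them.

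Barrel proteins of the outer membrane are inserted by SAM, and its 3 genes all rose, beside 38.4% of all tested genes. Mtx2, a metaxin of the complex, measured 20.5, 20.7 and 20.9 CPM in the 3 unstimulated libraries and 51.1, 48.6 and 44 CPM in the 3 stimulated ones, a 2.31-fold rise (log2 fold change 1.21, SE 0.08, adjusted p = 8.1e-07). Its partner Mtx1 measured 22.7, 26.6 and 30.2 CPM and 51.9, 57.5 and 59.1 CPM, a 2.12-fold rise (log2 fold change 1.08, SE 0.11, adjusted p = 1.6e-05). The count ratio of Mtx1 to Mtx2 overlapped between the groups, 1.11, 1.28 and 1.45 and 1.02, 1.18 and 1.34 (log2 change -0.12, exact permutation p = 0.5). Samm50, the barrel at the core, rose from 91.4 ± 3.79 to 184 ± 7.56 CPM (2.01-fold). That is close to 2-fold, and it did not pass the test against 2.

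The proteases that mature imported proteins held the 2 genes called lower. Pmpca and Pmpcb form the processing peptidase that removes presequences in the matrix. Pmpca measured 53.3, 51.01 and 47.2 CPM in the 3 unstimulated libraries and 110.1, 109 and 109 CPM in the 3 stimulated ones, a 2.17-fold rise (log2 fold change 1.12, SE 0.07, adjusted p = 5.1e-07), just past the 2-fold test (adjusted p = 0.0492). Pmpcb measured 48.7, 48.1 and 46.95 CPM in the 3 unstimulated libraries and 71.7, 69.3 and 68.5 CPM in the 3 stimulated ones, a 1.46-fold rise (log2 fold change 0.54, SE 0.06, adjusted p = 3.2e-05). The ratio of Pmpca to Pmpcb was near 1 at rest (1.09, 1.06 and 1.005) and higher in every stimulated library (1.54, 1.57 and 1.595). Mipep, which trims a further octapeptide from some precursors, rose from 9.45 ± 0.9703 to 15.8 ± 0.302 CPM (log2 fold change 0.74).

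Immp1l and Immp2l are the subunits of the inner membrane peptidase, which cleaves sorting signals of proteins released into the intermembrane space. Immp1l measured 16.9, 19.6 and 25.8 CPM in the 3 unstimulated libraries and 9.99, 9.06 and 10.9 CPM in the 3 stimulated ones, 2.08-fold lower after stimulation (log2 fold change -1.06, SE 0.16, adjusted p = 0.000250). Its unstimulated libraries were the more variable, with the third highest, and none came as low as a stimulated library. Immp2l was measured at a low level, with 35, 45 and 37 counts at rest and 18, 23 and 24 counts after stimulation, or 1.23 ± 0.166 and 0.757 ± 0.104 CPM. It was called lower (log2 fold change -0.70, SE 0.26, adjusted p = 0.0321), but not with DESeq2 (adjusted p = 0.126), without the filter on low counts (adjusted p = 0.0748), at a threshold of 0.01, or without unstimulated replicate 2 or any of the stimulated libraries (adjusted p from 0.0542 to 0.111). The ratio of Immp1l to Immp2l overlapped between the groups, 15.2, 13.8 and 22.2 and 15.7, 11.2 and 13.2 (exact permutation p = 0.3).

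Per length, the order of the import genes changed with stimulation. Tomm7 (67.5 ± 10.1 RPKM), Tomm22 (53.1 ± 4.48 RPKM) and Tomm5 (42.04 ± 2.96 RPKM) held the highest levels at rest, with Timm13 (33.6 ± 3.66 RPKM) and Timm8b (31.9 ± 3.65 RPKM) next. Of these neighbours, Timm13 and Timm8b differed by less than their spread. After stimulation Tomm5 was first (164 ± 18.4 RPKM), followed by Timm23 (86.6 ± 6.13 RPKM), Timm8b (86.5 ± 5.07 RPKM), Timm13 (82.9 ± 13.2 RPKM), Timm10 (78.2 ± 3.24 RPKM) and Tomm7 (75.5 ± 3.96 RPKM), and from Timm23 to Tomm7 neighbours differed by less than their spread. Timm10 moved from rank 23 to rank 5 of 36, Tomm40 from 22 to 9 (7.22 ± 0.219 to 55.2 ± 2.59 RPKM), Chchd4 from 35 to 17 (1.65 ± 0.159 to 22.8 ± 0.291 RPKM), and Immp1l from 7 to 29 (21.8 ± 4.799 to 10.5 ± 0.976 RPKM). Immp2l was last in both groups. Union exon length includes exons that these cells may not use, so levels of genes with long annotated exons, such as Timm17a and Chchd4, may be understated.

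**Figure D4:**
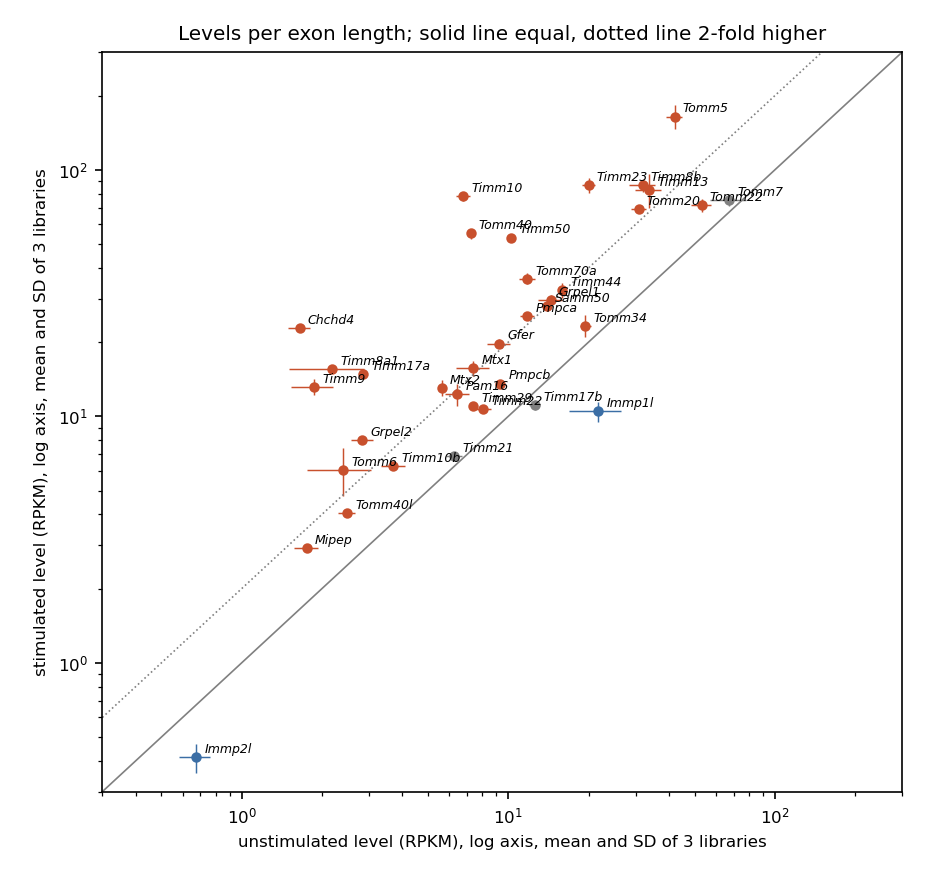
Mean level per length of each import gene, in RPKM on log axes, with the unstimulated mean on the horizontal and the stimulated mean on the vertical axis, bars of 1 SD over 3 libraries, a solid line of equality and a dotted line of a 2-fold rise. Most genes lie above the solid line, Chchd4, Timm10 and Tomm40 farthest from it, and Timm17b, Immp1l and Immp2l lie below it.

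Some counts carry an added uncertainty from the annotation. For 17 of the 36 genes some exon bases are shared with another gene, and no source used here says whether counting used the strand. Beside Tomm6 and Tomm40l, the shares are largest for Mtx1 (21.2% with Gm43737), Pmpca (20.4% with Inpp5e), Pam16 (18.7% with Glis2), Timm8b (15.6% with Nkapd1) and Grpel1 (11.7% with Tada2b). Another 19 annotated transcripts of other genes, mostly pseudogenes, match a transcript of 9 of the 36. Identity is at least 95% over at least 160 aligned bases, which can be a small part of the transcript (168 of 1125 bases for Tomm7 and Gm13450). Among these are 6 matches to Timm23, 5 to Tomm20 and 1 to Timm17a, so reads that align equally well to both genes may have been lost. Gfer matches the protein-coding gene Dst at 99.83% identity over 573 of 1776 bases, which adds uncertainty to the Chchd4 to Gfer ratio. Over the 6 libraries Dst had 4568 counts and Gfer 5732. Pam16 matches Gm9803 at 100% over 534 of 596 bases, and Timm23 matches Gm10273 at 99.91% over 1121 of 1173.

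Genes next to the 36 on the import route were taken from lists by function. Of 12 tested genes of other import components, 8 rose and 2 fell, with a median log2 fold change of 0.72. Of all tested genes 38.4% were called higher and 39.1% lower. Beside Hspa9, the rises with the smallest p were Dnlz, a partner that keeps Hspa9 soluble, from 18.8 ± 0.958 to 49.9 ± 1.05 CPM, and Mtx3, a further metaxin, from 8.801 ± 0.561 to 30.7 ± 2.87 CPM. The J proteins of the motor went apart: Dnajc19 measured 20.2, 20.8 and 24.7 CPM and 33.4, 38.3 and 39.6 CPM and rose (log2 fold change 0.76, adjusted p = 0.000130), and Dnajc15 measured 105, 130.3 and 150.4 CPM and 44.7, 49.8 and 56.2 CPM and fell (log2 fold change -1.36, adjusted p = 2.5e-05). Oxa1l, which inserts proteins into the inner membrane from the matrix side, also fell, from 82.4 ± 4.92 to 53.2 ± 2.11 CPM.

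Most chaperones listed, on both sides of the mitochondrial membranes, rose, where 38.4% of all tested genes were called higher and 39.1% lower. Among 13 chaperones and proteases inside mitochondria, not all of them in the matrix, 9 rose and 2 fell (median log2 fold change 1.36). Hspd1 and Hspe1, the chaperonin and its lid that fold imported proteins, rose to 1236 ± 62.5 CPM (from 125 ± 11.1) and 334 ± 3.93 CPM (from 89.3 ± 3.297), and the protease subunit Clpp rose from 16.04 ± 0.343 to 67.9 ± 5.39 CPM. The proteases Spg7 and Oma1 fell (log2 fold changes -0.39 and -0.26). Among 10 cytosolic chaperones that deliver precursors 7 rose and 2 fell (median 1.14), with Hsp90aa1 going from 199.5 ± 19.3 to 1115 ± 91.97 CPM and the Hsp70 to Hsp90 adaptor Stip1 from 120.4 ± 0.865 to 426 ± 18.1 CPM. Hsp90ab1 rose as well (log2 fold change 1.48), and Dnajb1 was among those that fell (-0.22).

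The mRNAs of proteins that these routes import, or that share the membranes with the machinery, moved in both directions. Of 15 twin-cysteine proteins that the Chchd4 relay imports, 6 rose and 3 fell, with a median log2 fold change of 0.11; the share that rose is near the 38.4% of all tested genes called higher. Chchd1, a subunit of the mitochondrial ribosome, Cox17, a copper chaperone, and Chchd10 rose (0.77, 0.74 and 1.18), and Cmc2 and Chchd5 fell (-1.31 and -1.24). With library size alone 3 of the 15 rose and 3 fell. For 10 outer membrane pore, fusion and transport proteins 6 rose and 3 fell (median 0.25), beside 38.4% of all tested genes higher and 39.1% lower. With library size alone 3 of these 10 rose and 3 fell. Rhot1, Vdac2 and Mtch2 were among those that rose (0.91, 0.97 and 0.45), and Mtch1, a relative of the outer membrane insertase Mtch2, and the fission factor Fis1 fell (-0.83 and -0.44). Of 8 genes of MICOS, the complex that shapes cristae, and of proteins that act with it or on cristae, 3 rose and 2 fell (median 0.21), again near the share of all tested genes. The gene with the smallest p was Dnajc11, a J protein associated with MICOS and SAM, which went from 34.3 ± 2.501 to 181 ± 9.74 CPM. Immt (0.79) and Apoo (0.90) also rose, and Apool (-0.76) and Chchd3 (-0.22) fell.

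**Figure D5:**
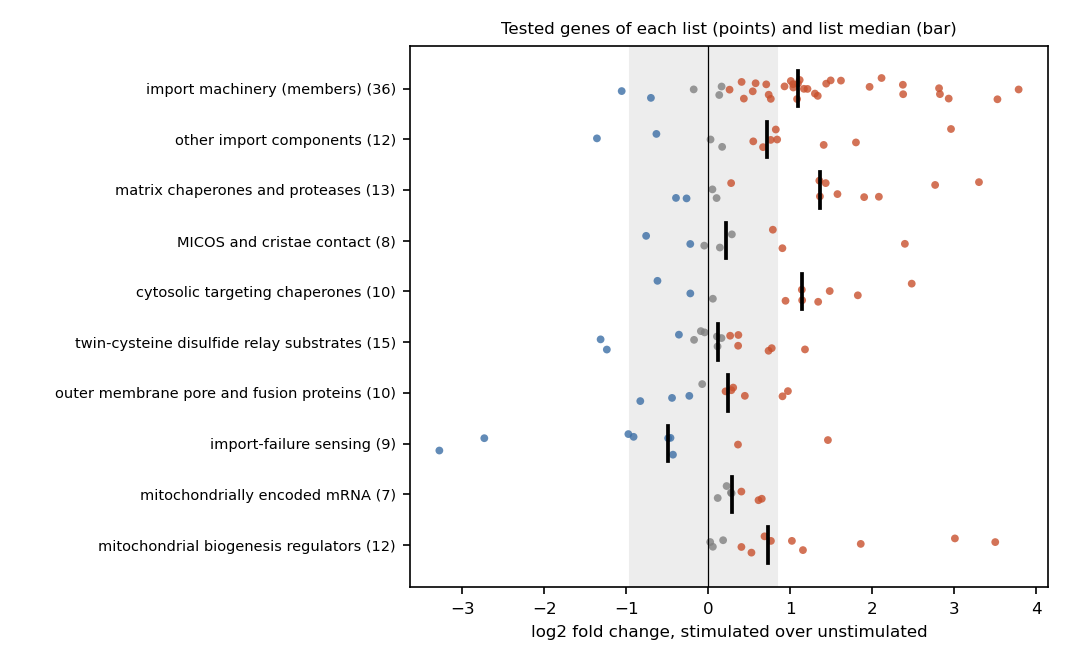
Log2 fold changes of the genes of each list, stimulated over unstimulated, 1 point per tested gene, coloured red where called higher, blue where called lower and grey where not called, with the median of each list as a bar and the quartiles of all tested genes as shading. The import machinery, the mitochondrial chaperones and proteases (labelled matrix) and the cytosolic chaperones have medians near or above 1. The genes of import-failure sensing and mitophagy have a median below 0.

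A list of genes for sensing of failed import and for mitophagy, among them the mitophagy receptors Bnip3, Bnip3l and Fundc1, held mostly genes that fell. Of 9 tested, 7 fell and 2 rose (median log2 fold change -0.49), where 39.1% of all tested genes were called lower. Pink1, the kinase that accumulates on TOM when import through TIM23 stalls, measured 138, 111 and 154 CPM and 12.8, 11.02 and 17.6 CPM (log2 fold change -3.28, adjusted p = 2e-06). Bnip3l fell from 175 ± 7.71 to 26.4 ± 2.08 CPM. The genes that rose were Atf4, the transcription factor of the integrated stress response, from 122 ± 7.102 to 335 ± 2.48 CPM, and Atf5 (log2 fold change 0.36). For each of the 7 that fell, every stimulated library was below every unstimulated one. Groups did not overlap, in either direction, for 79.8% of all tested genes.

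Regulators of mitochondrial biogenesis rose in 9 of 12 cases and fell in 0, also 0 at an unadjusted p of 0.05 and with DESeq2 and limma-voom (median log2 fold change 0.73). Of all tested genes 38.4% were called higher and 39.1% lower. Myc went from 167 ± 25.5 to 1340.4 ± 23.5 CPM, Pprc1, a coactivator of the PGC-1 family, from 28.1 ± 7.44 to 318 ± 26.1 CPM, and Gabpb1, a subunit of GABP, from 49.7 ± 2.35 to 111 ± 6.13 CPM. Of 13 mRNAs encoded in mitochondrial DNA, which need no import, 7 passed the filter, of which 3 rose and 0 fell, also 0 at an unadjusted p of 0.05 and with DESeq2 and limma-voom (median 0.29). These 3 were mt-Nd1 (769 ± 123 to 1176 ± 179 CPM), mt-Nd2 (467 ± 72.4 to 735 ± 96.1 CPM) and mt-Nd5 (886 ± 143 to 1173 ± 153 CPM), with log2 fold changes of 0.61, 0.65 and 0.40, each smaller than the median of the 36 import genes. The share of these mRNAs that rose is near that of all tested genes, the groups overlapped for mt-Nd5 (adjusted p = 0.0257), and 2 in place of 3 were called with library size alone, at an adjusted p of 0.01, and without unstimulated replicate 1 or 2 or stimulated replicate 2 or 3. The difference between these lists was not tested. Of the mRNAs encoded in mitochondrial DNA, mt-Nd3, mt-Nd4l, mt-Co2, mt-Co3, mt-Atp6 and mt-Atp8 did not pass the filter. They had 0 to 18 counts in each library, beside 135075 to 188128 for mt-Co1. No multimapping rule is given, and whether reads of these genes were set aside in counting was not tested.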

How the data were processed

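Raw read counts per Ensembl gene for the 6 libraries were deposited by the authors as 1 table. The submitters' processing notes name GRCm38, the aligner STAR 2.5.2a, HTSeq and DESeq2, with no role or order. In the notes as held here there is no strand setting, multimapping rule or annotation release. Per the labels' protocols, RNA was purified on columns and prepared with a TruSeq RNA kit.

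GENCODE M21 named 48058 of the 48440 identifiers. Counts were filtered with filterByExpr, scaled by TMM and tested with edgeR 4.0.16 (quasi-likelihood, robust, two-sided), with Benjamini-Hochberg adjustment over 13314 genes and a threshold of 0.05. Changes beyond 2-fold were tested with glmTreat against a log2 fold change of 1. CPM and RPKM use TMM-scaled library sizes, and errors are SD over 3 libraries. Pairs were compared by exact permutation of log2 count ratios over the 6 libraries, where the smallest possible p is 0.1. The fit was also run on simulated data in which few genes changed, unlike here, and no result given here rests on that run. Alternatives used DESeq2 1.42.0, limma 3.58.1, other scalings, filters and thresholds, a replicate block, and each library left out. Library totals were 29897720 to 30252923 counts.

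Values in every library are given for the gene of each role with the largest change, for genes past the 2-fold test and for both genes of a described pair; from each other list up to 3 genes that rose and 2 that fell, by p, are named, and always Hspa9, Dnajc19, Cd4 and Il2; 1 gene that this rule would name is not reported here. The members, lists and pairs were chosen with earlier results of these data known.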

Additional observations from a re-analysis of the deposited data

How the results depend on the processing

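Of 540 comparisons of single import genes with an alternative, 518 kept direction and call, 6 gained the call, 14 lost it and 2 changed sign. The 80 alternatives for pair ratios each shifted the log2 change by less than the pooled SD of the groups. The permutation test was not rerun for them, and its threshold is one that the design cannot pass. The sign changes were both Timm21, at -0.0055 with library size alone and -0.018 without the 20 most abundant genes. Those 2 scalings shift the median of all genes by -0.14 and -0.15, and the median of the import genes was then 0.95 and 0.94. The count of import genes higher ran from 30 to 32 and the count past 2-fold from 12 to 17. The count lower was 1 in place of 2 with no filter, with DESeq2 and at an adjusted p of 0.01, and 1 to 2 with 1 library left out. It was 3 with library size alone, without the 20 most abundant genes, with the filter of 1 CPM and with the replicate block.

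In the other lists, counts moved by over 1.5 times as follows. Mitochondrial chaperones and proteases lower went from 2 to 1 with no filter, DESeq2 and 0.01 (1 to 2 with a library left out). Cytosolic chaperones lower went from 2 to 1 with RLE, DESeq2 and 0.01 (1 to 2). MICOS genes higher went from 3 to 5, and mitochondrially encoded mRNAs higher from 3 to 5, with the replicate block. With library size alone and without the 20 most abundant genes the twin-cysteine and outer membrane genes higher went from 6 to 3, and import-failure genes higher from 2 to 1, the last also at 0.01 and without unstimulated replicate 2. The cause was not tested.

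Replicate numbers are shared between groups. Same-numbered libraries correlated at 0.361, 0.0845 and 0.380, and differently numbered ones at -0.363 to -0.0117. Each library thus correlated best with its own number. The numbers were not taken as pairs in the main fit, because the correlation for replicate 2 was low. Whether they mark pairs is not said. With the replicate block 32 import genes were higher, 3 lower and 17 past 2-fold. Tomm7 (0.17, adjusted p = 0.034, edgeR) was then called higher and Timm17b (-0.18, adjusted p = 0.0335, edgeR) lower. At this depth Immp2l, with under 50 counts a library, and Tomm6 were the least precise.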
